A study of Drosophila melanogaster with 3 samples.

Results

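HP1 peaks on U, the Drosophila melanogaster sequence that joins scaffolds without a chromosomal place, numbered 2070 of the 15755 peaks in the deposited list, which is 13.1%. They were taken as every peak whose sequence name is U, with no selection on measured values. They made up 14.7% of all bases under peaks. The study mapped HP1 by chromatin immunoprecipitation (ChIP) and sequencing in whole embryos 8 to 16 h old, cross-linked in 1.8% formaldehyde for 15 min. It had 1 input DNA sample and 2 ChIP replicates, for which the antibody was ab24726, a rabbit polyclonal raised against full-length recombinant fly HP1. All 3 samples shared the strain labelled Y cn bw sp. Its labelled alleles were y[1], oc[R3.2], Gr22b[1] and Gr22d[1], then cn[1], CG33964[R4.2], bw[1] and sp[1], and also Rh6[1], GstD5[1], MstProx[1], LysC[1] and lab[R4.2]. No treatment was compared, and whole embryos mix all cell types of that age.

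HP1 is a structural protein of heterochromatin. Its chromodomain binds the methylated tail of histone H3 (H3K9me), and bound HP1 molecules associate with each other and with the enzymes that set this mark, so the protein tends to coat long stretches rather than single sites. In flies it is best known from the repeat-rich sequence around the centromeres and from chromosome 4. Repeats hinder assembly, and much of the sequence that could not be assigned to an arm in FlyBase release 5 was gathered in U. The scaffolds in U are joined end to end, so places side by side on U need not lie side by side in the nucleus, and a gap or a group of peaks may span a junction. The list does not mark junctions, and the sequence itself was not used here.

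The list holds 1 set of peaks for the whole study and does not say which replicate a peak came from. No value below therefore has an error between replicates, no test between groups could be made, and the read depth is unknown. Whether differences between sequences exceed the variation between embryo samples was not tested. How reads that match several places were handled is not stated in the labels or the file, and its part in these values was not tested. The score of a peak is the authors' own value, with no stated scale, and serves only to rank and describe peaks within this list.

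HP1 peaks lay in 98 of the 100 full windows of 100 kb along U, at a density that changed several-fold from place to place. The first peak began at position 89 and the last ended at 10049007, taken here as the length of U (positions are FlyBase release 5, counted from 1). This gave 206 peaks per Mb, with 18.3% of bases under peaks. Among the 100 full windows of 100 kb, the median held 20 peaks (quartiles 13 and 26.3), the fullest 59 and the emptiest 0. The median window had 17.4% of its bases under peaks, with quartiles of 10.4% and 24.6%. Windows with 30 or more peaks numbered 15, and windows with under 10 numbered 17. The 10 fullest windows held 418 peaks, 20.2% of those on U.

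**Figure D1:**
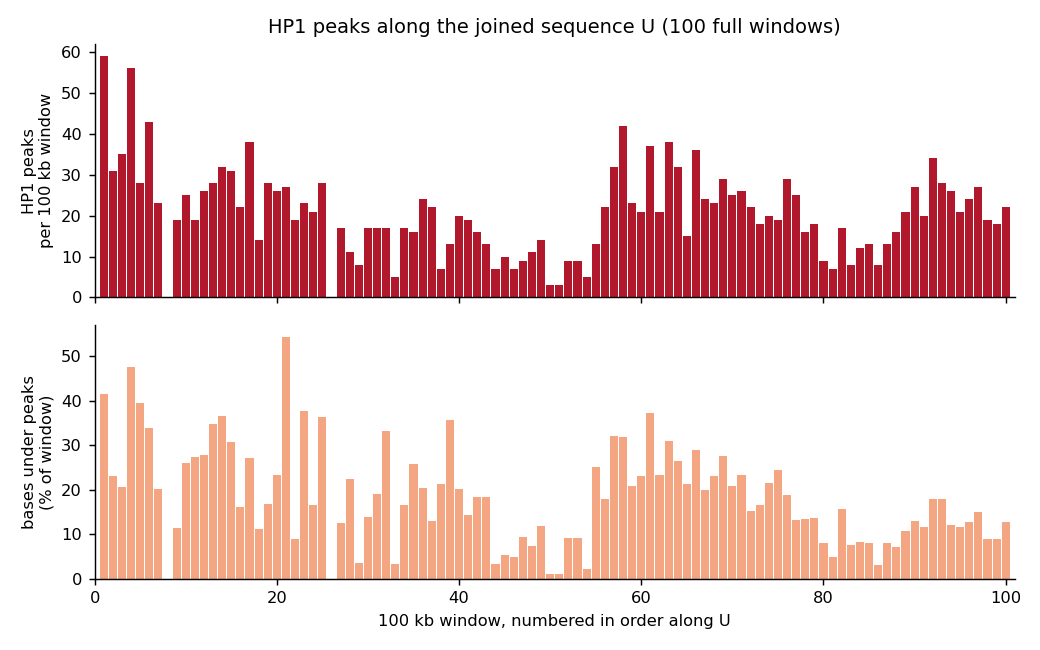
Number of HP1 peaks (top) and percent of bases under peaks (bottom) in each of the 100 full windows of 100 kb, numbered in order along U. Windows 8 and 26 have no bar because they hold no peak, window 1 has the most peaks (59), and window 21 has the most covered bases (54.2%).

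The fullest stretch was the beginning of U. Its first 0.7 Mb held 275 peaks in 7 windows of 23 to 59 peaks each, a density of 393 per Mb with 32.3% of bases covered. The sparsest long stretch, chosen after its values were seen, ran from 4.3 to 5.4 Mb. It held 87 peaks in 11 windows of 3 to 14 each, which is 79.1 per Mb with 5.88% covered. The windows on either side of it, left out of the stretch, held 13 peaks each but were better covered. From 4.2 to 4.3 Mb the covered share was 18.5%, and from 5.4 to 5.5 Mb it was 25.1%. Beyond these, from 5.5 to 7 Mb, each of 15 windows held 15 to 42 peaks, at 280 per Mb and 25.7% covered. The median peak width was nearly the same in these 3 stretches, at 505, 520 and 495 bp. They thus differed more in density, at 393, 79.1 and 280 per Mb, than in this median, which does not show how wide their widest peaks were.

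The number of peaks and the covered share did not always go together. The window from 2.0 to 2.1 Mb had the highest covered share, 54.2%, with 27 peaks, fewer than the 59 of the first window. From 2.7 to 2.8 Mb, 11 peaks covered 22.5% of the window, and 1 of them was 9062 bp wide. From 9.1 to 10 Mb the reverse held, as 219 peaks, or 243 per Mb, covered 13.1%.

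By 1 Mb pieces, the peak density ran from 319 per Mb in the first to 109 in the fifth, and the covered share from 26.4% in the first to 8.65% in the ninth. The second piece held 264 peaks, the third 171, the fourth 158, the sixth 179 and the seventh 280. The last 3 held 202, 142 and 239. Neighbouring peaks lay closest in the first piece, with a median gap of 620 bp, and farthest apart in the ninth, with 3763 bp. Median scores moved little, from 17.3 to 21.4.

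Most peaks on U stood in groups, in that they had a neighbour within 5 kb. Whether this exceeds what their density alone would give was not tested. The median gap was 1022 bp (quartiles 292 and 4580 bp), and 1025 gaps, 49.5%, were under 1 kb. Joining neighbours with a gap under 5 kb gave 480 domains. Of these, 155 were single peaks, 182 held 2 to 4 peaks, 90 held 5 to 9, 47 held 10 to 19 and 6 held 20 or more. The 119 domains of at least 10 kb contained 1237 peaks, 59.8% of those on U, and spanned 25.7% of its length. Their median length was 17733 bp, of which a median of 44.7% lay under peaks. Domains of at least 50 kb numbered 5 and took up 3.81% of U.

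The domain with the most peaks ran from 285160 to 396745. It spanned 111586 bp and held 68 peaks, which covered 49.7% of it. It was made of many peaks of ordinary width (median 479 bp) and ordinary score (median 18.9), and its highest score was 76.8. The next, from 27196 to 119044, held 58 peaks over 91849 bp and was 49.9% covered. Another, from 6174371 to 6249301, had 34 peaks over 74931 bp with a wider median of 688 bp. Both remaining domains above 50 kb held 25 peaks, from 1163085 to 1216597 and from 592565 to 643141. The other 5 of the 10 domains with most peaks held 17 to 20 each and spanned 28298 to 43717 bp. Of these 10 domains 3 lay within the first Mb and 1 lay beyond 7 Mb. That one, from 9157118 to 9192877, had 17 peaks, the lowest covered share of the 10 (24.3%) and the highest median score (27.0).

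A different kind of domain had few but very wide peaks. From 2012142 to 2047966, 7 peaks with a median width of 3098 bp covered 96.2% of 35825 bp, including peaks of 11764 and 10325 bp that stand 351 bp apart. From 3132753 to 3161320, 5 peaks covered 91.3%, most of it in 1 peak of 20583 bp. The widest peak on U, from 3790951 to 3812159, was 21209 bp long and had no neighbour within 5 kb. Its score of 56.4 was above that of 92.7% of peaks on U, but well below the highest.

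Single peaks, those with no neighbour within 5 kb, had scores that reached as high as those of the rest. These 155 peaks, 7.49% of those on U, had a median score of 21.9 (quartiles 13.9 and 40.7) and a median width of 520 bp. The 1915 peaks with a nearer neighbour had a median score of 18.6 (quartiles 12.3 and 30.7) and a median width of 497 bp. The upper quartile of scores over the whole list, 34.6, was reached by 50 of the single peaks (32.3%) and by 20.9% of the others. Both groups overlapped over nearly their whole range. The highest score on U belonged to a single peak.

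Long stretches without peaks took up a sizeable part of U. Gaps of 20 kb or more numbered 77 and together made up 25.8% of U. The longest were 131169 bp, from 684756 to 815924, then 117530 bp, from 2491890 to 2609419, and 97779 bp, from 3172400 to 3270178. The first and second of these contain the 2 windows of 100 kb that held no peak. The other 7 of the 10 longest were 45364 to 69556 bp, and 6 of the 10 lay between 4 and 5.5 Mb. The 10 together spanned 728329 bp, 7.25% of U. Peaks at the edges of these 10 stretches had scores from 8.32 to 64.9, and the first 3 stretches were bordered by peaks of 245 to 819 bp. Whether these stretches hold sequence to which reads could be assigned was not tested.

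Widths on U had a median of 498 bp and quartiles of 313 and 954 bp, close to the 503 bp of the whole list. Narrow peaks were common and contributed little coverage: 470 peaks under 300 bp (22.7%) made up 6.18% of the covered bases. The 388 peaks from 1 to 3 kb (18.7%) made up 34.4%. The 95 peaks of 3 kb or more (4.59%) made up 26.3%, and 29 of them were 5 kb or wider. Scores rose with width: the median was 10.9 below 300 bp, 16.0 from 300 to 500 bp, 22.9 from 500 bp to 1 kb, 38.7 from 1 to 3 kb and 61.1 at 3 kb or more. Across the 2070 peaks, which are not independent, the rank correlation of width and score was 0.80.

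Wide peaks stopped short of the end of U. All 95 peaks of 3 kb or more lay in the first 7 Mb, and the last of them ran from 6924202 to 6928142. This limit was placed after the data had been seen. From 7 Mb on, where 590 peaks lay in 3.05 Mb, the widest measured 2841 bp (7005215 to 7008055). The density was 211 per Mb before and 194 after, but the covered share was 20.8% before and 12.7% after. The median gap was 779 bp before and 2445 bp after, and the 90th percentile of width 2196 and 1288 bp. Scores were not lower: the median was 18.2 before and 20.0 after, and for peaks of 1 to 3 kb it was 35.7 (290 peaks) and 47.2 (98 peaks). The longest peak-free stretch was 131169 bp before and 39127 bp after, and the longest domain spanned 111586 bp before and 36395 bp after. These maxima come from parts of unequal length, 7 Mb and 3.05 Mb, and a maximum can rise with length. Gaps of 20 kb or more numbered 55 before and 22 after. Scaffold lengths were not used here, so whether they differ between these 2 parts of U was not tested.

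**Figure D2:**
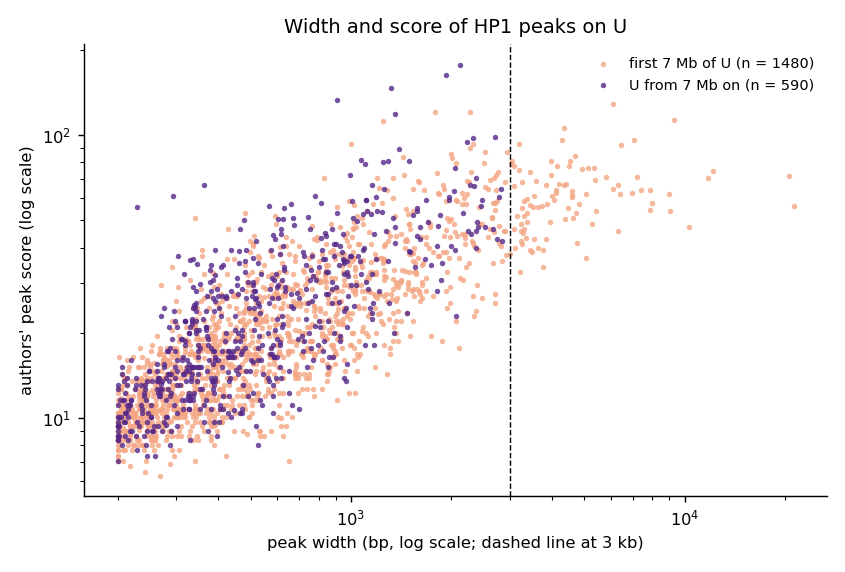
Width (bp, log scale) against the authors' score (log scale) for each HP1 peak on U, in the first 7 Mb (1480 peaks) and from 7 Mb on (590 peaks). Every point right of the dashed line at 3 kb belongs to the first 7 Mb, while the highest 4 scores lie from 7 Mb on.

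The highest scores on U sat on peaks wider than most, though seldom on the widest: the 10 were 909 to 9315 bp wide, and each was wider than at least 73.1% of the peaks on U. The top score, 177.6, belonged to a peak of 2122 bp from 7284476 to 7286597, and the second, 163.4, to one of 1931 bp from 7585111 to 7587041. Then came 146.6 at 9412617 to 9413937 (1321 bp) and 133.4 at 9260811 to 9261719 (909 bp). These 4 all lay beyond 7 Mb. The fifth, 128.4, was a peak of 6079 bp from 2471614 to 2477692. Of the 10 highest, 5 lay from 7 Mb on, a part with 28.5% of the peaks, and 2 were 3 kb or wider, as were 4.59% of all peaks on U. The remaining 5 were 120.5 (3485216 to 3486995), 120.4 (6731852 to 6734130), 119.0 (7531443 to 7532793), 113.0 (5456898 to 5466212) and 112.3 (5978069 to 5979312). Only the peak from 5456898 to 5466212, of 9315 bp, was also among the 10 widest. The 10 widest peaks scored 47.2 to 113.0.

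Beside the separately assembled heterochromatin of chromosome 3, U carried fewer HP1 peaks, spaced farther apart. The density was 206 per Mb on U against 332 on 3LHet (847 peaks), 303 on 3RHet (754 peaks) and 198 on chromosome 4 (268 peaks). Covered shares were 18.3% on U, 42.8% on 3LHet, 31.3% on 3RHet and 19.6% on chromosome 4. U and chromosome 4 were thus within a ratio of 1.04 in density and 0.93 in covered share. Against 3LHet the ratios were 0.62 and 0.43, and against 3RHet 0.68 and 0.59. With peaks closer than 1 kb merged, the density ratio to 3LHet was 0.94, because more peaks of 3LHet lie that close (66.8% of its gaps against 49.5% on U). None of these differences was tested, for want of values per replicate.

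**Figure D3:**
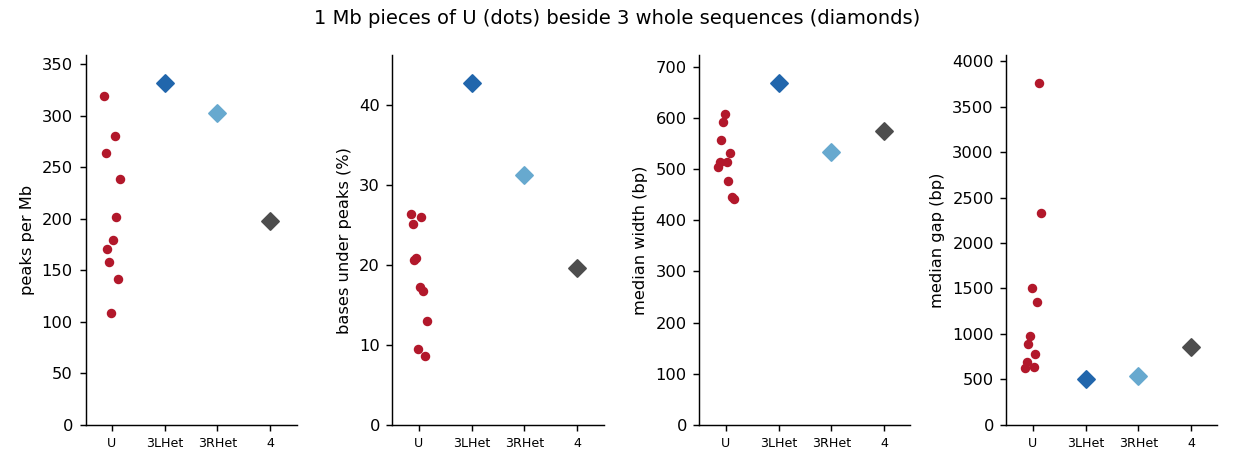
Peaks per Mb, percent of bases under peaks, median peak width and median gap for the 10 full 1 Mb pieces of U (dots, in order from left to right) and for the whole of 3LHet, 3RHet and chromosome 4 (diamonds). Every piece of U lies below 3LHet and 3RHet in covered share and above both in median gap, while the pieces fall on both sides of chromosome 4.

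The 10 pieces of U enclosed the values of chromosome 4 but not those of 3LHet. All 10 pieces of 1 Mb had fewer peaks, less coverage, narrower median peaks, wider median gaps and lower median scores than 3LHet. Against 3RHet all 10 were lower in coverage and wider in gaps, while 9 were lower in density and 1 was higher. In width 7 pieces were below 3RHet and 3 above. Against chromosome 4, density and coverage were each higher in 5 pieces and lower in 5, and the median gap was wider in 6 and narrower in 4. Median width and median score were each above chromosome 4 in 2 pieces and below it in 8. The median score was above that of 3RHet in 9 of the 10. Since the pieces come from 1 list and 1 sequence they are no replicates, and these counts only describe the spread.

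Median widths and median scores on U differed from the other sequences by smaller ratios than median gaps did. Median widths were 498 bp on U, 669 bp on 3LHet, 534.5 bp on 3RHet and 575.5 bp on chromosome 4. Upper quartiles were 954, 1497, 1072 and 1081 bp in the same order. Median gaps were 1022 bp on U and 507, 539 and 854 bp on the others, and upper quartiles of the gaps were 4580 bp against 1540, 2049 and 2691 bp. The mean gap of U, 3966 bp, was above those of 3LHet (1724 bp) and 3RHet (2271 bp). It was slightly below that of chromosome 4 (4069 bp), the other direction from the medians. Median scores were 18.6 on U, 22.4 on 3LHet, 17.7 on 3RHet and 19.8 on chromosome 4. The difference in median score between U and 3RHet, 0.91, turned in direction when only peaks at or above the list's median score were kept. Merging peaks closer than 1 kb moved the ratio of median widths of U to 3RHet from 0.93 to 0.57. Among peaks at or above the median score of the list, the ratio of median gaps was 3.75 to 3LHet and 2.03 to chromosome 4, in place of 2.02 and 1.20. The rank correlation of width and score was 0.85 on both Het sequences and 0.81 on chromosome 4.

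**Figure D4:**
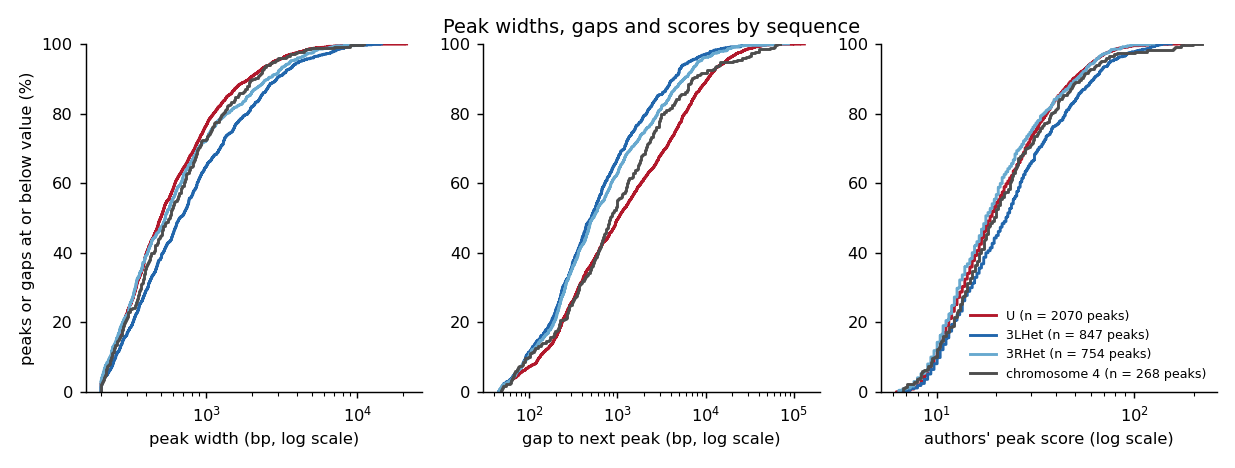
Cumulative share of peaks by width and by authors' score, and of gaps between neighbouring peaks, on U and 3 other sequences (log scales on the horizontal axes). The gap curve of U lies to the right of both Het curves (median 1022 bp against 507 and 539 bp), whereas the score curves lie closer together.

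Bins of 20 kb with dense coverage were rare on U and stood apart from each other. In bins of 20 kb, 21 of 502 on U (4.18%) had at least 50% of their bases under peaks, against 48 of 127 on 3LHet (37.8%), 25 of 124 on 3RHet (20.2%) and 4 of 67 on chromosome 4 (5.97%). The exact 95% binomial interval was 2.61% to 6.32% for U and 29.3% to 46.8% for 3LHet. It covers counting of bins only and treats them as independent, which neighbouring bins are not. No 2 dense bins on U adjoined, whereas 3LHet had a run of 5, or 100 kb, and 3RHet and chromosome 4 each a run of 3, or 60 kb. Fixed bins can divide a dense stretch, and domains of U given above, such as the one from 2012142 to 2047966 with 96.2% covered, are longer than 1 bin. Yet the fullest single bin on U was 99.7% covered, more than the highest of 3LHet (90.5%), 3RHet (95.5%) or chromosome 4 (86.5%). A maximum can rise with the number of bins, and U had the most, 502 against 127, 124 and 67.

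**Figure D5:**
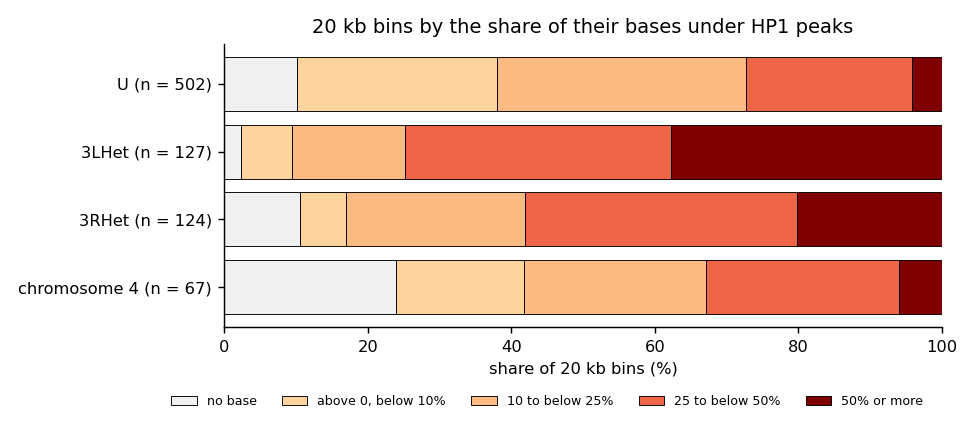
Share of 20 kb bins in 5 classes of covered bases on U, 3LHet, 3RHet and chromosome 4. Bins with 50% or more of their bases under peaks make up 4.18% on U and 37.8% on 3LHet, and bins with no base under a peak 10.2% and 2.36%.

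Bins without any base under a peak made up 10.2% of U (51 bins), 2.36% of 3LHet (3 bins), 10.5% of 3RHet (13 bins) and 23.9% of chromosome 4 (16 bins). U and chromosome 4, close in density, were farther apart here, with a ratio of 0.43. Gaps of 20 kb or more took up 25.8% of U, against 45.6% of chromosome 4, 15.3% of 3RHet and 9.58% of 3LHet. Thinly covered bins were frequent on U: 27.9% had some coverage below 10%, against 17.9% on chromosome 4 and 6.45% on 3RHet.

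With single peaks counted as domains, the median domain was shorter on U than on the other sequences. With a joining distance of 5 kb, the median domain was 3678 bp on U, 20865 bp on 3LHet, 8885 bp on 3RHet and 8815 bp on chromosome 4. Single peaks made up 32.3% of the domains on U and 7.25%, 11.2% and 11.9% on the others. Domains of at least 10 kb spanned 25.7% of U, 66.4% of 3LHet, 48.3% of 3RHet and 28.0% of chromosome 4. They held 59.8% of the peaks on U, 91.7% on 3LHet, 79.0% on 3RHet and 61.6% on chromosome 4. The median length of these longer domains was 17733 bp on U, 30920 bp on 3LHet, 26416 bp on 3RHet and 16760 bp on chromosome 4. In that length U was thus below both Het sequences but not below chromosome 4. The median covered share of these domains was 44.7% on U against 59.6%, 53.1% and 48.9%. Other joining distances were tried for U only. Domains of 20 or more peaks held 11.1% of the peaks on U, 46.0% on 3LHet, 25.6% on 3RHet and 14.9% on chromosome 4, where they were 1 domain of 40 peaks. The longest domain of 3LHet, 149150 bp, exceeded that of U, while those of 3RHet (78163 bp) and chromosome 4 (107209 bp) did not. U was also the longest of these sequences, and a maximum can rise with length.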

How the data were processed

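For the 3 samples the authors deposited a single peak list. Its positions are those of FlyBase release 5 and its peaks come from MACS, per the file headers. The submitters' processing notes name BWA, MACS2 and CASAVA, the last in versions 1.7.0.3 and 1.7.0.2. Neither the settings and threshold nor any pooling of replicates is stated. The score of each peak was deposited without a definition. Deposited starts count from 0, since 1 start equals 0, and positions are printed from 1.

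Each sequence was taken to end at its last peak. Peaks were assigned to windows by midpoint, and covered bases were counted exactly. Domains, bins and windows were computed with Python 3.11.15, numpy 2.4.6, pandas 2.3.3 and scipy 1.17.1, and checked on a made-up list. Regions named are the 10 highest scores, the 10 widest peaks, the 10 domains with most peaks, the 10 longest peak-free stretches and the fullest and emptiest windows. Others were added after their values were seen. Members, lists and limits were chosen with earlier results of these data known. Alternatives were score limits, merging, removal of wide peaks, other bins and other joining distances. Uextra is set beside U in the closing observations only, and the other sequences were not compared.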

Additional observations from a re-analysis of the deposited data

How the results depend on the processing

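A value counted as stable within 1.5 times its reported size, or, for shares of bins, within the exact 95% binomial interval. Of 41 recomputed values for U, 17 were stable. Some of these could hardly have moved. Merging peaks closer than 1 kb leaves domains joined under 5 kb as they were, with 119 of 10 kb or more. Counting length from the first peak, at position 89, takes almost nothing off U. The count of stable values is therefore no measure of robustness. Keeping scores at or above the list's median left 92.2 peaks per Mb, a median width of 984 bp, gap of 4283 bp and score of 33.5, 22.3% empty bins and 73 domains of 10 kb or more. At or above the upper quartile these were 44.9 per Mb, 1578 bp, 9354 bp, 47.2, 41.6% and 26, with 9.80% of U covered and 1.99% dense bins. Fewer peaks and higher scores follow from the limit itself. Merging peaks closer than 1 kb gave 104 per Mb, width 1140 bp, gap 4520 bp and 10.8% dense bins. Without peaks over 5 kb, 1.39% of bins were dense. Bins of 10 kb gave 24.8% empty and 9.36% dense, bins of 50 kb 2.50% and 0.50%. Joining under 2 kb left 54 domains of 10 kb or more. Taking the 10 longest peak-free stretches out of the length, an alternative chosen after seeing the data, gave 222 peaks per Mb and 19.8% covered.

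Of 60 recomputed ratios of U to 3LHet, 3RHet and chromosome 4, 54 stayed within 1.5 times, and 5 of these crossed 1. Those 5 were density against chromosome 4 at the upper score quartile (0.948), score against 3RHet at the median limit (0.984), at the upper quartile (0.925) and with merging (0.961), and score against chromosome 4 with merging (1.11). Why these crossed was not tested. With merging, which joins a larger share of the peaks of 3LHet, the density of U came to 0.94 of 3LHet. No paired analysis was possible because the list holds no values per replicate, so neither replicate could be left out.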

Other observations

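The last 3.05 Mb of U lay nearer to Uextra, the other sequence of unplaced scaffolds, than to the first 7 Mb of U in some values and farther from it in others. Uextra held 8329 peaks over 28.9 Mb. Its median peak width was 475 bp, against 460 bp on U from 7 Mb on and 515.5 bp before. Its median gap was 1962 bp, against 2445 and 779 bp. Gaps under 1 kb made up 29.96% on Uextra, 33.1% on U from 7 Mb on and 56.1% before. Peaks of 3 kb or more made up 0.228% on Uextra, 0% and 6.42%. Peaks of 1 to 3 kb had median scores of 52.2, 47.2 and 35.7 in the same order. Other values lay nearer to the first 7 Mb of U. The density was 194 per Mb on U from 7 Mb on, 211 before and 288 on Uextra. Single peaks made up 32.2% of the domains in both parts of U and 19.003% on Uextra. The median domain was 3070 bp, 4013 bp before and 6877 bp on Uextra, and the longest was 36395, 111586 and 172440 bp. In the share of empty 20 kb bins and in the upper quartile of width, U from 7 Mb on lay between the first 7 Mb and Uextra. Empty bins made up 12.9% before 7 Mb, 3.95% from 7 Mb on and 0.623% on Uextra. The upper quartile of width was 1023, 818 and 628 bp in the same order. The limit at 7 Mb was chosen after seeing the data, and none of these differences was tested.

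Covered shares of neighbouring 20 kb bins were weakly related on U. Pearson's r was 0.34 over 501 pairs of adjacent bins, beside 0.23 on 3LHet (126 pairs), 0.30 on 3RHet (123) and 0.39 on chromosome 4 (66). A peak that crosses a limit between bins counts in both, and bins are not independent.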
